A study of Mus musculus with 12 samples.

Results

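The response of YUMM1.1 melanoma cells to interferon-gamma (IFNG) was measured by RNA-seq of total RNA in 6 of the 12 libraries of the series. YUMM1.1 is a cultured mouse melanoma line from a genetically engineered model of Braf-mutant melanoma with deleted Cdkn2a. The members were the 3 libraries of YUMM1.1 cells given IFNG at 10 ng/ml for 48 h and the 3 libraries of untreated YUMM1.1 cells. Both groups were grown in the same serum-containing medium, and no other agent or allele separates them in the labels. The libraries represent 1 cell line in culture, without the immune or stromal cells of a tumour. Nothing in the labels says that the 3 libraries of a group are independent cultures. The p-values therefore speak of the spread among these 6 libraries, and that spread may be technical.

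IFNG is the cytokine that activated T cells and natural killer (NK) cells use to alert neighbouring cells. Its receptor, made of IFNGR1 and IFNGR2 chains, activates the kinases JAK1 and JAK2, which phosphorylate transcription factors of the STAT family. STAT dimers bind GAS elements in promoters, and the factors made in this first wave, above all IRF1, act on further genes through ISRE elements. Known outputs are antigen presentation on MHC molecules, cell-autonomous defence against microbes, chemokines that attract T cells, and the inhibitory ligand PD-L1 together with SOCS proteins that dampen the signal. In melanoma the same pathway marks tumours under T-cell attack.

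The 6 libraries held 19145253 to 24747859 counts. Mitochondrial transcripts took 1.1% of the counts of Control 1 and 0.520% to 0.734% of the counts of the other 5 libraries. The library IFNG 3 stood above the other treated libraries in most of the genes that rose. Genes of the melanocyte lineage differed widely in level, and of the 18 genes of the pigment and melanocyte list 8 had enough reads to be tested. Sox10, a neural crest and melanocyte factor, was the most abundant gene of that list. It was at 684, 684 and 739 CPM (counts per 1000000 counts of the library) in Control 1, 2 and 3. Tyrp1 and Kit had 0 reads in the controls and the treated libraries. Mitf, the regulator of pigment genes, was at 1.7, 1.78 and 1.49 CPM in the same controls. Of 28 markers of leukocytes, fibroblasts, endothelium and keratinocytes, 5 had enough reads to be tested. These were 3 of 13 leukocyte markers, 1 of 7 fibroblast markers and 1 of 8 endothelial and keratinocyte markers, and 0 were called. The leukocyte marker Ptprc had 0 reads in every library, which does not speak for the markers that were detected. Gene-level counts of Cdkn2a and Braf were present in all 6 libraries, which does not check a deletion of single exons or a point mutation.

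After IFNG, 484 genes were higher and 107 were lower among 12970 genes with enough reads (3.73% and 0.825% of the genes tested, 4.56% in all; called means a Benjamini-Hochberg adjusted p below 0.05 in edgeR's quasi-likelihood test). Rises reached far larger sizes than falls: 213 genes rose and 4 fell by a log2 value of at least 2, and 94 rose and none fell by at least 5. The median log2 value was 1.61 among the rises, -0.83 among the falls and -0.01 over all tested genes. In bulk libraries, a rise in more cells and a larger rise in fewer cells cannot be told apart. Genes that rose held 2.06%, 1.98% and 2.07% of all counts in the controls and 6.62%, 7.09% and 8.48% in the treated libraries. In each of the 591 called genes the 3 treated libraries lay on 1 side of the 3 controls, whereas among all tested genes the treated libraries lay above the controls in 7.72% and below them in 16.3% by CPM, and in 11.04% and 9.25% by TMM-scaled CPM. Scaling by library totals alone, in place of TMM factors, gave 425 rises and 178 falls, so that the share of rises among calls moved from 81.9% to 70.5%.

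**Figure D1:**
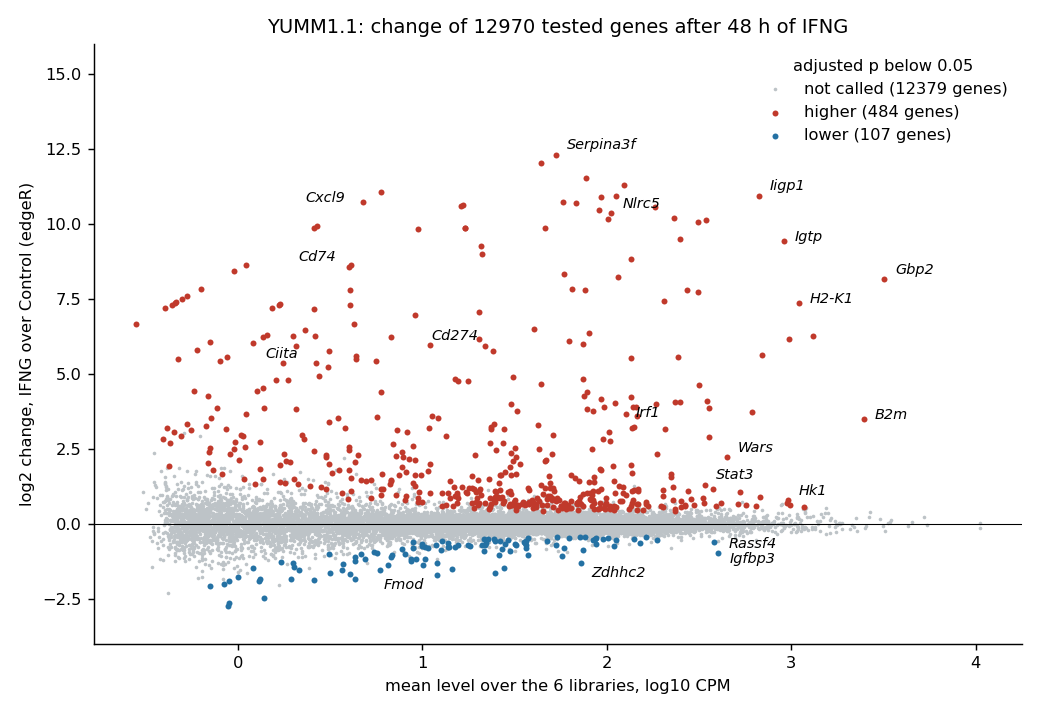
Log2 change of IFNG-treated over control YUMM1.1 libraries (y axis) against the mean level of each gene over the 6 libraries in log10 CPM (x axis), 1 point per tested gene. Called rises (484 genes, red) reach log2 values above 12, and called falls (107 genes, blue) stay above -3.

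Of the 2402 tested genes with a control mean above 100 CPM, 45 rose and 15 fell. Among the 484 rises, 14 had 0 reads in the 3 controls together and 27 had 1 to 3 reads. For these genes the fitted log2 value depends on the prior count of the model, and their changes are given below as ratios of counts or as lower bounds.

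The receptor and JAK1 did not pass the test, whereas genes of the STAT family rose. Ifngr1, the ligand-binding chain, was at 68.1, 53.5 and 66.4 CPM in the controls and 59, 52.8 and 47 CPM in the treated libraries (log2 -0.17 ± 0.13 (SE), adjusted p = 0.625). Ifngr2, the signalling chain, was at 30.1, 39.1 and 34.9 CPM and 25.6, 25 and 30.3 CPM (log2 -0.29 ± 0.14 (SE), adjusted p = 0.369). Jak1, the kinase on IFNGR1, was at 217, 178 and 180.5 CPM and 201, 236 and 193 CPM (log2 0.21 ± 0.12 (SE), adjusted p = 0.489). The groups overlapped in Ifngr1 and Jak1, and the treated libraries overlapped the lowest control in Ifngr2.

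Jak2, the kinase on IFNGR2, was at 52.8, 56.8 and 53.2 CPM in the controls and 66.6, 75.7 and 80.2 CPM after IFNG, without overlap. It was called higher (log2 0.53 ± 0.11 (SE), adjusted p = 0.0226), a call lost when Control 1, Control 3, IFNG 2 or IFNG 3 was left out (adjusted p 0.0599 to 0.0982). Stat2, which works with IRF9 in the ISGF3 complex of type I interferon signalling, went from 24.4, 12.4 and 20.2 CPM to 242, 294 and 268 CPM (log2 3.89 ± 0.22 (SE), adjusted p = 1.65e-06). Stat3, which carries signals of the interleukin-6 family, was already abundant and went from 212, 194 and 204 CPM to 439, 480.3 and 513 CPM (log2 1.31 ± 0.11 (SE), adjusted p = 3.62e-05). Of the type I interferon receptor chains, Ifnar2 was called higher (24.7, 22.3 and 26.6 CPM against 32.4, 35.6 and 36.2 CPM, log2 0.58 ± 0.12 (SE), adjusted p = 0.0173), a call lost without Control 2, IFNG 2 or IFNG 3 (adjusted p 0.0545 to 0.0838). Ifnar1 was not called (log2 -0.24 ± 0.11 (SE), adjusted p = 0.326). In all, 5 of the 10 tested receptor, JAK and STAT genes rose and 0 fell, beside 3.73% and 0.825% of all tested genes. Without IFNG 2 or without IFNG 3, 3 were called.

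Among the interferon regulatory factors (IRFs), 5 of 7 tested genes rose, beside 3.73% of all tested genes. Irf1 (chr11:53770014-53778374, GRCm38), the early target that relays the signal, went from 28.8, 25.8 and 29.9 CPM to 416, 437 and 476 CPM (log2 4.05 ± 0.13 (SE), adjusted p = 1.43e-08). Its 3 treated libraries were close together and all far above the controls. Irf7, an amplifier of interferon production, went from 0.984, 0.836 and 0.926 CPM to 60.2, 72.4 and 106 CPM (log2 6.51 ± 0.28 (SE), adjusted p = 1.52e-07). Irf9, the DNA-binding subunit of ISGF3, went from 12.5, 11 and 12.8 CPM to 90.01, 87.2 and 92.5 CPM (log2 2.97 ± 0.11 (SE), adjusted p = 5.85e-08). Irf2, which binds the same elements as IRF1, rose least, from 19.5, 17.6 and 17.2 CPM to 29.4, 31 and 34.4 CPM (log2 0.88 ± 0.12 (SE), adjusted p = 0.00136). Irf3, activated by phosphorylation rather than synthesis, was at 54.2, 48.7 and 56.8 CPM and 53.2, 47.9 and 49.3 CPM and was not called.

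Irf8 is best known from myeloid and B cells, and its transcripts appeared here at a low level. It had 1 read in the 3 controls together and 47, 39 and 151 reads in the treated libraries, a ratio of 207 with a 95% counting interval of 36.8 to 8206. IFNG 3 held the most of these reads: without it the ratio was 113 (19.8 to 4521). The control read lay in Control 1, and without that library the treated level was at least 43.7-fold higher (the other controls together set at a floor of 3 counts). Batf2, a factor that pairs with IRF1 and IRF8 in macrophages, had 1 control read and stood at 30.9, 30.5 and 39 CPM after IFNG. Per kilobase of exon, the treated mean level was 111 CPM for Irf1, 21.1 for Irf7, 16.7 for Irf9 and 0.481 for Irf8.

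The brakes on the pathway divided. Socs1, the inhibitor of JAK kinases that IFNG induces, went from 30.7, 40.5 and 37.9 CPM to 105, 83 and 109 CPM (log2 1.52 ± 0.15 (SE), adjusted p = 1.02e-04). Usp18, which removes ISG15 and blocks the type I interferon receptor, had 4, 3 and 2 reads in the controls and stood at 11.1, 12.3 and 31 CPM after IFNG (log2 6.97 ± 0.59 (SE), adjusted p = 5.05e-05, and 6.32 without IFNG 3). Socs2, an inhibitor of growth hormone signalling, fell from 7.69, 4.81 and 6.43 CPM to 1.34, 1.94 and 2.26 CPM (log2 -1.69 ± 0.27 (SE), adjusted p = 0.00379). Socs3 was at 24.5, 38.4 and 22 CPM and 43.8, 41.7 and 29.3 CPM with overlapping groups and was not called. The other 7 tested brakes, among them the phosphatase gene Ptpn2 (log2 0.15 ± 0.11 (SE), adjusted p = 0.572), were not called either. This leaves 2 rises and 1 fall among 11, beside 3.73% and 0.825% of all tested genes.

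**Figure D2:**
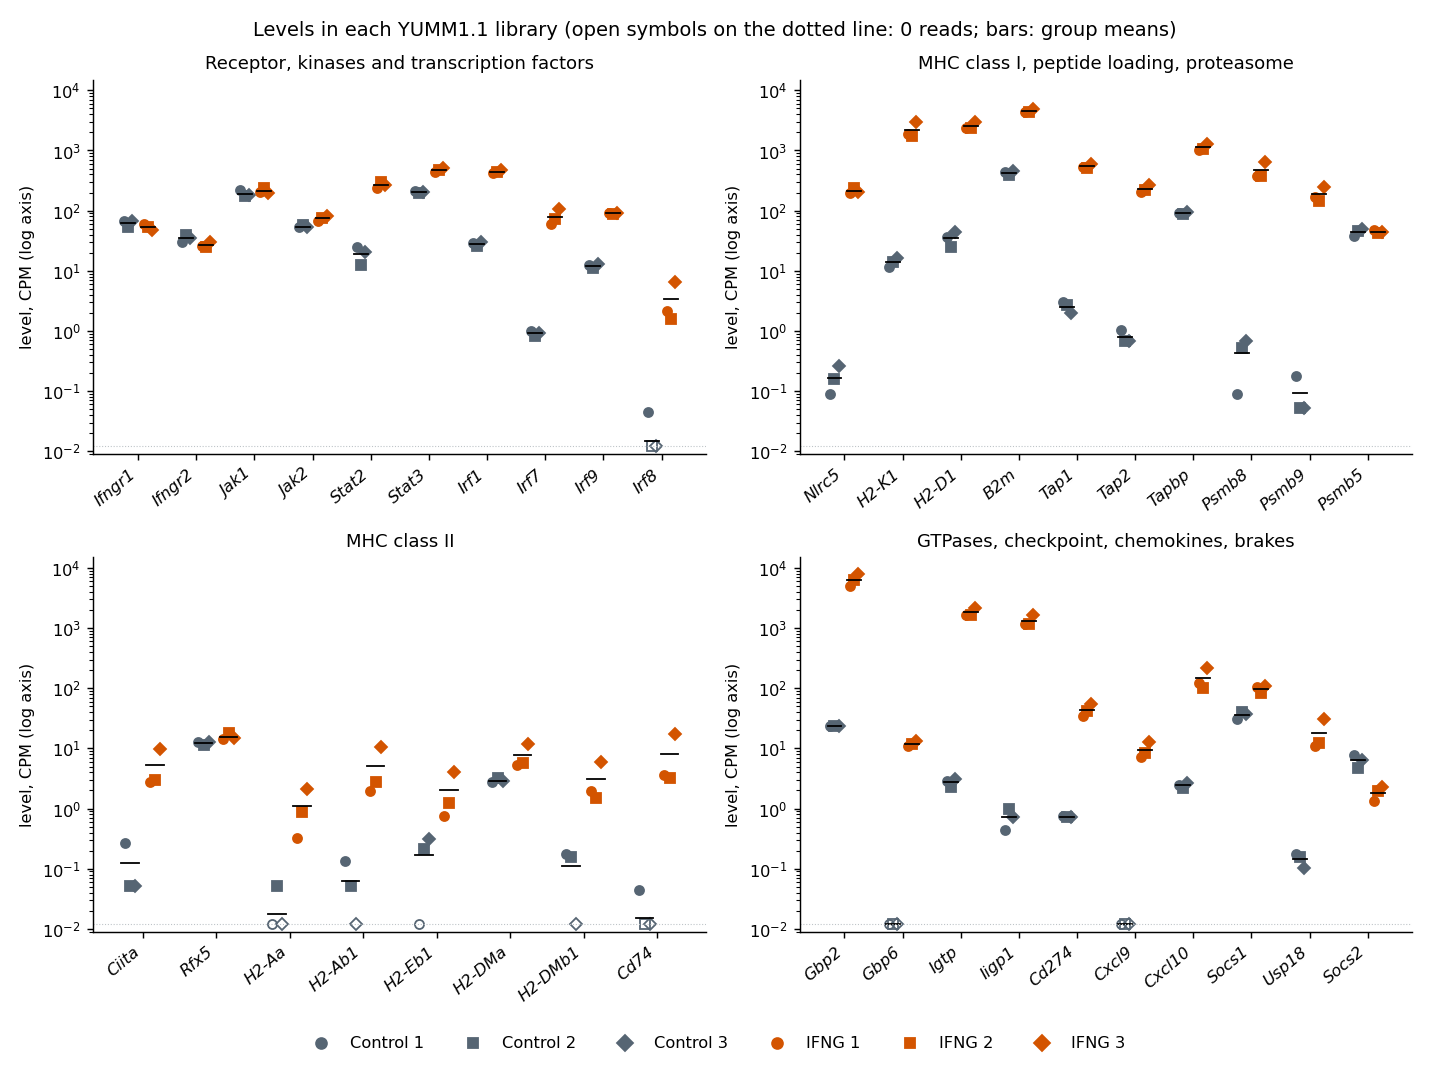
Levels of selected genes in each of the 6 libraries, in CPM on a log axis, with grey symbols for controls, orange symbols for IFNG and bars for the group means. The groups are separated in Irf1, the class I genes and the GTPases, whereas they overlap in Ifngr1, Jak1 and Psmb5, and IFNG 3 (diamonds) is the highest treated library in each plotted class II gene other than Rfx5.

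To set these changes beside the DNA at the gene starts, promoter sequences were read from RefSeq (GRCm38.p6) as windows of 250 bases before to 50 bases after each gene start. Matches to a GAS element were sought as TTCNNNGAA and to an ISRE core as a pair of GAAA with any 2 bases between them, on both strands, with overlapping matches allowed. Below, 4 promoters of genes that rose are printed 5′ to 3′ along the gene's strand because each shows a different arrangement, with matching bases in capitals. Irf1 (chr11:53769764-53770063, plus strand) has 1 GAS match, Gbp2 (chr3:142620413-142620712, plus strand) has 1 ISRE match near the start, Isg15 (chr4:156200769-156201068, minus strand) has 3 overlapping ISRE matches, and B2m (chr2:122147437-122147736, plus strand) has 1 ISRE match farther upstream.
Irf1: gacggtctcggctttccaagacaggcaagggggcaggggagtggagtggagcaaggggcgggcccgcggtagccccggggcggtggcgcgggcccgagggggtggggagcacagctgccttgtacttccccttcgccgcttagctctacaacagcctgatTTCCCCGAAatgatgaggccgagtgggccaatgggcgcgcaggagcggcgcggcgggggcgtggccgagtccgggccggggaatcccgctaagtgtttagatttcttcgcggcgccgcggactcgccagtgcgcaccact
Gbp2: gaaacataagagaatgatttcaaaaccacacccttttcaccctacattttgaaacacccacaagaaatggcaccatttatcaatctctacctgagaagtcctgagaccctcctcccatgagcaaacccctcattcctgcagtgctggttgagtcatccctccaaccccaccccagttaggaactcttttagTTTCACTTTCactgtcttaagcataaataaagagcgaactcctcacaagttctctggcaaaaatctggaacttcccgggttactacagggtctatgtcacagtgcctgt
Isg15: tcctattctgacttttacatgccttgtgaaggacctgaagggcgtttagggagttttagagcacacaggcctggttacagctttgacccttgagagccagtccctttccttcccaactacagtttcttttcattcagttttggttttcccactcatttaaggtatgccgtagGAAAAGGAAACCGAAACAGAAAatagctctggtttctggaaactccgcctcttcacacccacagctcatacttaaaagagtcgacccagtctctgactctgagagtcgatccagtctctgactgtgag
B2m: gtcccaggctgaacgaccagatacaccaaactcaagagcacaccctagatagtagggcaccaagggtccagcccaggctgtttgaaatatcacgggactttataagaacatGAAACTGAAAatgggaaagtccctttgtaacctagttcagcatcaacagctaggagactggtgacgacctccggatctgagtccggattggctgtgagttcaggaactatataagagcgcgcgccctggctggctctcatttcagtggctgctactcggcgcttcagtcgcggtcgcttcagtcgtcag

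Matches were more common in the promoters of genes that rose strongly than in promoters at large. Of the 213 genes that rose by a log2 value of at least 2, 142 had a promoter window; 26 of these had a GAS match (18.3%), 56 an ISRE match (39.4%) and 70 either one (49.3%). Over the 9696 tested genes with a window the shares were 8.12%, 3.73% and 11.3%, and of all 32851 promoter windows 8.30% held a GAS match and 3.44% an ISRE match. Of the 80 genes with a window that fell, 4 had a GAS match and 4 an ISRE match (5% each). The shares describe letters in a window and were not tested, and genes of 1 family can share promoter sequence.

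In position, ISRE matches of the strong rises were most frequent in the 50 bases before the gene start, where 20 of 173 windows had one (11.6%) against 59 of 12412 windows of all tested genes (0.475%). GAS matches of the strong rises were most frequent 50 to 100 bases before the start, in 10 of 173 windows (5.78%) against 169 of 12412 (1.36%). The former included windows of Gm12185, Tgtp1, Tgtp2 and Irgm2, chromosome 11 genes that share an arrangement described below, so these windows are not independent cases.

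**Figure D3:**
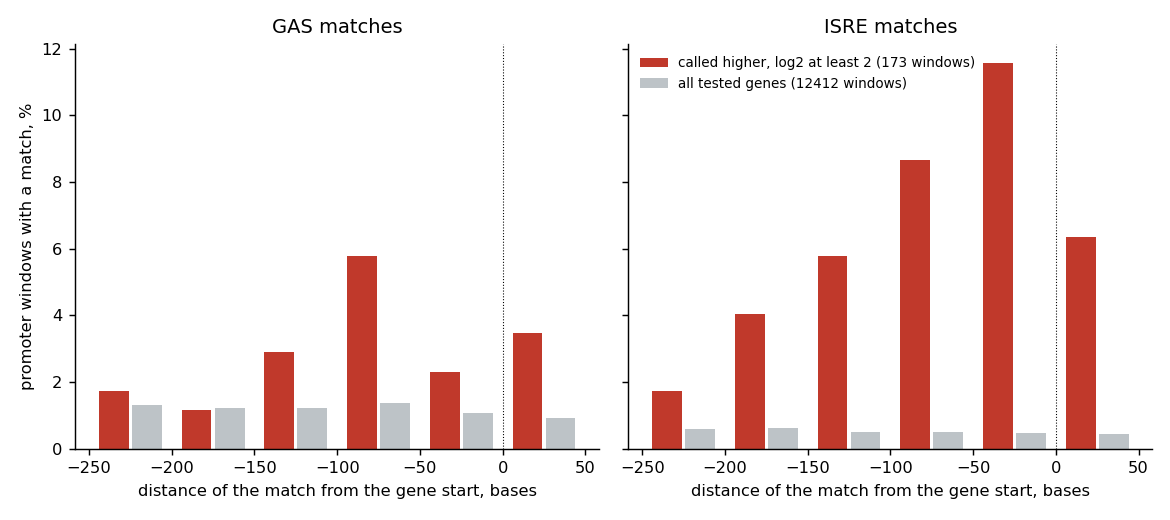
Share of promoter windows with a GAS match (left) or an ISRE match (right) in bins of 50 bases, by distance from the gene start in bases, for genes that rose by a log2 value of at least 2 (red, 173 windows) and all tested genes (grey, 12412 windows). In the red bars ISRE matches rise toward the gene start to 11.6%, while the grey bars stay at or below 1.36% in every bin of both plots.

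One arrangement occurred in 5 windows of the whole table: a GAS match followed after 2 bases by an ISRE match. All 5 windows belong to genes of the immunity-related GTPase family on chromosome 11 or its neighbours there, namely Igtp, Irgm2, Tgtp1, Tgtp2 and Gm12185, and each of these genes rose. The arrangement was noticed in promoter sequences and then counted, so its count is a description. The promoters of Irf1, Gbp2, Isg15 and B2m printed above do not hold it. Stretches of 61 bases are shown for 3 of them to compare the shared letters, with both matches in capitals, from Igtp (chr11:58199491-58199551, plus strand), Irgm2 (chr11:58214882-58214942, plus strand) and Tgtp1 (chr11:48992294-48992354, minus strand).
Igtp: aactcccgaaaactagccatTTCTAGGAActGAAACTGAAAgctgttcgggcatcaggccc
Irgm2: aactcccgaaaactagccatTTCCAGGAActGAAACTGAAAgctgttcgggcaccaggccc
Tgtp1: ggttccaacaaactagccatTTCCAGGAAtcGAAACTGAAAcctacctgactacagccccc

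Igtp and Irgm2 are identical at 59 of the 61 bases, and Tgtp1 at 39 bases to Igtp and at 41 to Irgm2. The pair of matches lies 45 to 25 bases before the start of Igtp, 75 to 55 bases before that of Irgm2 and 88 to 68 bases before that of Tgtp1.

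The immunity-related GTPases (IRGs) attack the vacuoles of intracellular parasites in mouse cells. All 8 tested members rose, beside 3.73% of all tested genes, with a median log2 value of 10.03. Igtp went from 2.91, 2.3 and 3.14 CPM to 1639, 1630.2 and 2189 CPM (log2 9.43 ± 0.23 (SE), adjusted p = 3.26e-09). Irgm2 went from 2.91, 3.5 and 2.98 CPM to 542, 548 and 779 CPM (log2 7.72 ± 0.22 (SE), adjusted p = 7.10e-09). Annotated exons of Igtp and Irgm2 overlap on the same strand, so reads in the shared part could belong to either gene. Irgm1, a regulatory member with the highest control level of the family, went from 23.7, 28.9 and 31.3 CPM to 1778, 1857 and 2094 CPM (log2 6.17 ± 0.17 (SE), adjusted p = 7.10e-09).

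Iigp1, an effector that loads onto the parasite vacuole, went from 0.447, 0.992 and 0.72 CPM to 1190.0, 1169.5 and 1633 CPM (log2 10.94 ± 0.29 (SE), adjusted p = 4.58e-09). Tgtp1 had 3 reads in the controls together and stood at 135, 116 and 212 CPM after IFNG, a ratio of counts of 3131 (95% counting interval 1071 to 15187). Tgtp1 and Tgtp2 are close copies, so the counting could have divided their reads. Exons of Tgtp1 also overlap those of Gm12185 on the same strand. In every member the treated libraries lay far above the controls, and IFNG 3 was the highest of the 3.

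Guanylate-binding proteins (GBPs), large GTPases that work with the IRGs on pathogen vacuoles, rose in all 11 tested members, beside 3.73% of all tested genes. The median log2 value was 8.16. Gbp2 was the largest gain of any gene in CPM, from 23.6, 23.6 and 23.4 CPM to 4922, 6315 and 7889.7 CPM (log2 8.16 ± 0.24 (SE), adjusted p = 7.84e-09). Gbp3 went from 24, 31.8 and 30.2 CPM to 1158, 1219.5 and 1694 CPM (log2 5.64 ± 0.21 (SE), adjusted p = 5.31e-08). Gbp4 went from 0.537, 0.836 and 0.566 CPM to 592, 643 and 842 CPM (log2 10.14 ± 0.25 (SE), adjusted p = 3.26e-09).

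Gbp6 had 0 reads in the controls and 11, 11.9 and 13.2 CPM after IFNG, at least 245-fold higher (the controls together set at a floor of 3 counts). Gbp7, with 22.4, 18.8 and 17 CPM in the controls, rose least by log2 value, to 209, 256 and 242 CPM (log2 3.68 ± 0.14 (SE), adjusted p = 6.66e-08). The GBP genes lie in groups: the 5 tested genes of the group on chromosome 3 between 142493978 and 142638008 and the 6 of the group on chromosome 5 between 105014150 and 105346472 all rose. Gbp6 and Gbp10 are close copies whose reads could have been divided. Exons of Gbp4 overlap those of Gbp8 and Gbp9 on the same strand.

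In antigen presentation by MHC class I, heavy chains, light chain, peptide pump and peptide editors rose. H2-K1, a classical heavy chain, went from 11.7, 14.2 and 16.4 CPM to 1866, 1730.1 and 2968 CPM (log2 7.36 ± 0.28 (SE), adjusted p = 7.84e-08). H2-D1, the other classical heavy chain here, went from 36.6, 25.2 and 44.9 CPM to 2387, 2391 and 2940.5 CPM (log2 6.26 ± 0.24 (SE), adjusted p = 6.66e-08). B2m, the light chain shared by all class I molecules, was already at 431, 391 and 448 CPM and reached 4391, 4367 and 4876 CPM (log2 3.50 ± 0.14 (SE), adjusted p = 6.54e-08). Per kilobase of exon, the control mean of B2m was 492 CPM against 4.79 for H2-K1 and 13.8 for H2-D1, and the treated means were 5284, 745 and 998.

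Nlrc5, the transactivator of class I genes, went from 2, 3 and 5 reads in the controls to 195, 239 and 201 CPM (log2 10.36 ± 0.23 (SE), adjusted p = 3.26e-09). Tap1 and Tap2 encode the peptide pump of the endoplasmic reticulum. Tap1 went from 3, 2.66 and 1.95 CPM to 522, 505 and 605 CPM (log2 7.81 ± 0.19 (SE), adjusted p = 3.26e-09). Tap2 went from 1.03, 0.679 and 0.669 CPM to 205, 220.3 and 263 CPM (log2 8.23 ± 0.20 (SE), adjusted p = 3.26e-09). Tapbp (tapasin), Tapbpl and Erap1, which edit or trim the peptides, rose by log2 values of 3.71, 3.84 and 3.59 (SE 0.14, 0.17 and 0.15).

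The general chaperones that also fold class I molecules did not pass: Calr was at 1449.6, 1283 and 1389 CPM and 1522, 1544 and 1901 CPM (log2 0.35 ± 0.13 (SE), adjusted p = 0.243), and Canx and Pdia3 had log2 values of 0.02 and 0.33. In all, 9 of 12 tested class I genes rose, beside 3.73% of all tested genes, with a median log2 value of 3.78. The same number was called in each of the alternative fits.

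Non-classical class I genes rose in 8 of 10 tested members, beside 3.73% of all tested genes. H2-Q4 went from 0.447, 0.679 and 0.72 CPM to 578, 560.5 and 742 CPM (log2 10.07 ± 0.23 (SE), adjusted p = 3.26e-09). H2-T23, which encodes Qa-1, the ligand of the NK cell receptor CD94-NKG2A, went from 2.68, 1.67 and 3.14 CPM to 319, 379.6 and 519 CPM (log2 7.42 ± 0.28 (SE), adjusted p = 6.86e-08). H2-Q7 had 0 control reads and 3.8, 3.15 and 8.55 CPM after IFNG (at least 105-fold higher, and at least 70.2-fold without IFNG 3). The class I genes are near copies of each other, so that reads could have been assigned to the wrong member.

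The proteasome changed in its inducible subunits. Psmb8 and Psmb9 encode catalytic subunits that replace the constitutive ones to form the immunoproteasome. Psmb8 went from 0.0894, 0.522 and 0.669 CPM to 376, 382 and 638 CPM (log2 10.20 ± 0.42 (SE), adjusted p = 1.66e-07). Psmb9 had 4, 1 and 1 reads in the controls and stood at 172, 145 and 243 CPM (log2 10.88 ± 0.36 (SE), adjusted p = 3.29e-08, and 11.73 without Control 1). Psmb10, the third inducible subunit, rose by a log2 value of 4.07 (SE 0.18) and the PA28 activator genes Psme1 and Psme2 by 3.15 and 2.90 (SE 0.16 and 0.14).

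By contrast 1 of 14 genes of the constitutive 20S core was called higher, beside 3.73% of all tested genes. This gene, Psma5, went from 77.6, 104 and 97 CPM to 149, 134 and 165 CPM (log2 0.76 ± 0.14 (SE), adjusted p = 0.00871). Psmb5, which Psmb8 replaces, was at 38.5, 45.5 and 49.6 CPM in the controls and 46.9, 41.9 and 44.6 CPM after IFNG. Its groups overlapped and its log2 value was 0.08 (SE 0.12). Per kilobase of exon, the mean level of Psmb8 went from 0.126 to 138 CPM, and that of Psmb5 stood at 49.5 and 49.5 CPM. All 14 core genes had a log2 value above 0, with a median of 0.21 (0.13 when scaled by library totals), and 3 were called higher by DESeq2.

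MHC class II rose too but stayed far below class I in level and was uneven among the treated libraries. Ciita, the class II transactivator, had 6, 1 and 1 reads in the controls and stood at 2.78, 3.03 and 9.83 CPM after IFNG (log2 5.35 ± 0.75 (SE), adjusted p = 0.00197, and 4.49 without IFNG 3 or 6.57 without Control 1). Cd74, the invariant chain, had 1 control read in all and 79, 79 and 402 reads after IFNG, a ratio of counts of 489 (95% counting interval 87.4 to 19343). Without IFNG 3 the Cd74 ratio was 208 (36.8 to 8263), without Control 1 it was at least 103, and the call was lost in the fit without a filter on low counts (adjusted p = 0.139). H2-Ab1, a beta chain, was at 0.134, 0.0522 and 0 CPM and 1.99, 2.79 and 10.7 CPM (log2 6.27 ± 0.96 (SE), adjusted p = 0.00351, and 5.15 without IFNG 3 or 7.42 without Control 1). For all 3 genes every treated library was above every control, and IFNG 3 was well above the other treated libraries.

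H2-DMb1, a peptide exchange subunit, was at 0.179, 0.157 and 0 CPM and 1.99, 1.5 and 5.91 CPM (log2 4.79 ± 0.78 (SE), adjusted p = 0.00531, and 3.93 without IFNG 3). H2-Eb1, another beta chain, was at 0, 0.209 and 0.309 CPM and 0.742, 1.25 and 4.13 CPM (log2 3.66 ± 0.87 (SE), adjusted p = 0.0465), and its call was lost without any of Control 1, 2 or 3, IFNG 2 or IFNG 3 (adjusted p 0.0651 to 0.113, log2 2.63 to 4.39), with limma-voom (0.0868) and with library totals (0.0508). H2-DMa was called as well (2.73, 3.19 and 2.83 CPM against 5.24, 5.78 and 12 CPM, log2 1.48 ± 0.32 (SE), adjusted p = 0.0273) but not without Control 1, 2 or 3 (adjusted p 0.0511 to 0.106) and not with limma-voom (0.0604). H2-Aa had 1 control read and 7, 22 and 49 treated reads and fell below the filter on low counts.

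The constitutive factors of the class II promoter complex, Rfx5, Rfxap and Rfxank, were not called, with log2 values of 0.42, -0.02 and 0.03. In all, 6 of 9 tested class II genes rose, beside 3.73% of all tested genes. By limma-voom 4 rose, and 4 to 7 when 1 library was left out. Per kilobase of exon, the treated mean level of Nlrc5 was 24.9 CPM and that of Ciita 0.547 CPM, and the mean levels of H2-K1 and H2-Ab1 were 745 and 2.01 CPM.

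IFNG 3 stood above the other treated libraries in many interferon-induced genes. After TMM scaling it was the highest treated library in 357 of the 484 rises (73.8%) and in 176 of the 213 rises of at least 2 on the log2 scale (82.6%), against 39.6% of all tested genes. Its ratio to the mean of IFNG 1 and IFNG 2 had a median of 1.22 over all rises, 1.25 over the class I list and 3.82 over the 6 called class II genes. The ratio was 3.48 in Irf8, 2.69 in Usp18 and 7.13 in Rsad2, an antiviral enzyme gene with 2 control reads (0.881, 1.01 and 6.64 CPM after IFNG) whose call was lost without Control 1 or 3 (adjusted p = 0.0854 and 0.0695). The ratio of Rsad2 counts between treated and control libraries was 87.3 (23.9 to 726), and 28.9 (7.55 to 246) without IFNG 3. Without IFNG 3, 411 genes were called higher and 74 lower. The labels give the 3 treated libraries the same dose and time.

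Antiviral interferon-stimulated genes rose in 32 of 35 tested members, beside 3.73% of all tested genes, with a median log2 value of 3.90. Isg15, a ubiquitin-like protein that is attached to other proteins, went from 2.01, 1.83 and 2.26 CPM to 117, 143 and 217 CPM (log2 6.36 ± 0.27 (SE), adjusted p = 1.66e-07). Oasl2, of the oligoadenylate synthetase family, went from 5, 3 and 3 reads in the controls to 176, 179.6 and 257 CPM (log2 10.18 ± 0.28 (SE), adjusted p = 6.45e-09). Ifit1, which binds foreign RNA ends, went from 0.76, 0.627 and 0.72 CPM to 95.2, 128 and 229.8 CPM (log2 7.81 ± 0.42 (SE), adjusted p = 1.18e-06).

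Bst2 (tetherin), which holds virions at the cell surface, went from 5.59, 4.75 and 7.77 CPM to 251, 227 and 312 CPM (log2 5.53 ± 0.21 (SE), adjusted p = 6.55e-08). Ifit2 was not called: it was at 83.3, 82.8 and 84.3 CPM in the controls and 93.2, 109 and 128 CPM after IFNG, without overlap and with a log2 value of 0.48 ± 0.13 (SE), adjusted p = 0.0724. It was called higher by DESeq2 (adjusted p = 0.0196) and without a filter on low counts (0.00594), where its log2 value was 0.49. Per kilobase of exon, control Ifit2 stood at 21.3 CPM against 0.264 CPM for Ifit1. Ifitm2 was not called either (adjusted p = 0.714), and Oas1a, Oas2 and Oas3 had too few reads to be tested.

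Sensors of foreign nucleic acid rose in part. Zbp1, a sensor of Z-form nucleic acid that can start necroptosis, went from 2, 3 and 2 reads in the controls to 196, 202 and 273 CPM (log2 10.93 ± 0.27 (SE), adjusted p = 3.26e-09). The RNA sensors Ddx58 (RIG-I) and Ifih1 (MDA5) rose by log2 values of 2.77 and 5.77 (SE 0.14 and 0.25), and the endosomal receptor Tlr3 by 2.11 (SE 0.16). Cgas, the DNA sensor, was at 8.41, 7.78 and 6.53 CPM and 8.99, 6.99 and 6.55 CPM and was not called, nor was its partner Tmem173 (STING, log2 1.05 ± 0.31 (SE), adjusted p = 0.107). Tmem173 was called higher by DESeq2 (adjusted p = 0.0132) and without a filter on low counts (2.65e-05). Its log2 value was 1.05 without the filter as well.

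Chemokines that attract T cells through CXCR3 appeared or rose. Cxcl9 had 0 control reads and stood at 7.28, 8.4 and 13 CPM after IFNG, at least 195-fold higher. Cxcl10 went from 2.46, 2.19 and 2.62 CPM to 121, 99.4 and 221 CPM (log2 6.0 ± 0.34 (SE), adjusted p = 1.88e-06). Cxcl9 and Cxcl10 lie within 1 run of called rises on chromosome 5 between 92321347 and 92414628. Cxcl10, on the minus strand, lies inside Art3, on the plus strand, with overlapping exons, so that without strand information their reads could not be told apart.

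Ccl5, which attracts T cells and monocytes, had 4, 3 and 3 control reads and 2.18, 3.76 and 12.1 CPM after IFNG (log2 5.23 ± 0.77 (SE), adjusted p = 0.00275, and 4.21 without IFNG 3). Ccl2, which attracts monocytes, was abundant in both groups, at 126, 108 and 94.6 CPM and 124, 112 and 143 CPM, and was not called. Il18bp, the secreted inhibitor of interleukin-18, went from 5.28, 2.35 and 2.83 CPM to 65.3, 71.3 and 118 CPM (log2 4.67 ± 0.33 (SE), adjusted p = 1.25e-05). Il15ra, which presents interleukin-15 to NK and T cells, rose by a log2 value of 3.40 (SE 0.33), while Il15 itself was at 0.313, 0.418 and 0.36 CPM and 0.742, 0.889 and 1.53 CPM (log2 1.61 ± 0.42 (SE), adjusted p = 0.0669). In all 7 of 17 tested chemokines and cytokines rose, beside 3.73% of all tested genes.

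Of the checkpoint genes, 3 of 10 tested members rose, beside 3.73% of all tested genes. Cd274, which encodes PD-L1 (chr19:29367455-29388095), went from 0.76, 0.731 and 0.72 CPM to 34, 41.7 and 54 CPM (log2 5.94 ± 0.24 (SE), adjusted p = 7.17e-08). Its 3 controls were nearly equal and each treated library lay far above them. Tnfrsf14 (HVEM), a ligand of BTLA on T cells, went from 5.77, 2.87 and 5.76 CPM to 29.5, 51.9 and 46.2 CPM (log2 3.22 ± 0.29 (SE), adjusted p = 7.55e-05), and Lgals9 (galectin-9) from 53.4, 62.2 and 62.7 CPM to 112, 109 and 140.2 CPM (log2 1.1 ± 0.13 (SE), adjusted p = 5.42e-04). Cd276, Cd47, Nectin2 and Pvr, other surface ligands of the list, were not called, with log2 values of 0.15, 0.41, -0.14 and -0.01.

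Of 8 tested ligands of NK cell receptors 2 rose, H2-T23 and Clec2d, beside 3.73% of all tested genes. The median log2 value of the list was -0.15. Clec2d, the ligand of the inhibitory receptor NKR-P1B, went from 3.94, 3.5 and 3.65 CPM to 47, 55.9 and 66.6 CPM (log2 4.01 ± 0.17 (SE), adjusted p = 9.60e-08). The NKG2D ligands Raet1e, Ulbp1 and H60b, which activate NK cells, had log2 values of -0.69, -0.56 and -0.57 and were not called (adjusted p = 0.235, 0.434 and 0.617). Their groups overlapped in H60b and did not overlap in Raet1e and Ulbp1. By CPM, the treated libraries lay below all controls in 16.3% of all tested genes.

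Cell death genes rose in 9 of 20 tested members, beside 3.73% of all tested genes. Mlkl, the executioner of necroptosis, went from 53.9, 61.1 and 59.6 CPM to 204, 202 and 232 CPM (log2 1.95 ± 0.11 (SE), adjusted p = 1.34e-06). Casp4, the inflammatory caspase that senses bacterial lipopolysaccharide, went from 15, 9.82 and 15.9 CPM to 30.3, 40.3 and 49.4 CPM (log2 1.64 ± 0.22 (SE), adjusted p = 0.00136).

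Tnfsf10, the death ligand TRAIL, had 2, 8 and 1 control reads and 10.7, 10.8 and 18.4 CPM after IFNG (log2 6.23 ± 0.48 (SE), adjusted p = 2.04e-05, and 7.51 without Control 2). The BCL2 family genes Bid and Bak1, which promote permeabilisation of mitochondria, rose by log2 values of 1.18 and 0.94 (SE 0.13 and 0.17). Casp8, Bax, Bcl2 and Mcl1 were not called (log2 -0.19, -0.10, 0.07 and -0.03).

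The Serpina3 protease inhibitors and complement held some of the largest and least even rises. Serpina3f had 1 control read and 1446, 1914 and 4136 treated reads, a ratio of 6544 (95% counting interval 1174 to 258500.0), and 4421 (793 to 174700.0) without IFNG 3. Serpina3g, an inhibitor of cathepsins, was at 0.0894, 0.575 and 0.309 CPM in the controls and 14.2, 16.2 and 90.8 CPM after IFNG (log2 7.07 ± 0.99 (SE), adjusted p = 0.00197, 5.64 without IFNG 3 and 7.76 without Control 2). The Serpina3g call was lost with limma-voom (adjusted p = 0.0676) and without a filter on low counts (0.16). C4b, a complement component, went from 0.894, 0.313 and 0.514 CPM to 93.4, 201 and 93.6 CPM (log2 7.84 ± 0.45 (SE), adjusted p = 1.93e-06), with IFNG 2 well above the other treated libraries. Of the Serpina3 genes 4 of 6 tested members rose, beside 3.73% of all tested genes. They are close copies whose reads could have been divided. Of 12 genes of NF-kB subunits and targets 1 was called higher, beside 3.73% of all tested genes. This gene, Nfkbiz, an inducible nuclear cofactor, went from 10.8, 7.36 and 9.57 CPM to 24.5, 19.7 and 17.4 CPM (log2 1.22 ± 0.18 (SE), adjusted p = 0.0022).

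Of 16 tested genes of the integrated stress response 3 rose, and of 19 genes of glycolysis and hypoxia 2 rose, beside 3.73% of all tested genes. Wars, the tryptophanyl-tRNA synthetase and a known IFNG target, went from 149, 165 and 182 CPM to 582, 819.9 and 801 CPM (log2 2.23 ± 0.16 (SE), adjusted p = 8.37e-06). Hk2, the inducible hexokinase, went from 11.3, 11 and 11.2 CPM to 34.1, 29.7 and 23.5 CPM (log2 1.46 ± 0.15 (SE), adjusted p = 1.42e-04). Hk1, the ubiquitous hexokinase, went from 717, 669 and 805 CPM to 1246, 1177 and 1143 CPM (log2 0.78 ± 0.12 (SE), adjusted p = 0.00278).

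The other 17 tested glycolysis and hypoxia genes were not called, among them Slc2a1 (log2 0.14 ± 0.10 (SE), adjusted p = 0.594) and Ldha (log2 -0.18 ± 0.18 (SE), adjusted p = 0.735). The stress response genes that rose were Wars, Trib3 (log2 1.11 ± 0.18 (SE), adjusted p = 0.00405) and Ddit3 (log2 0.76 ± 0.15 (SE), adjusted p = 0.018). Trib3 is a pseudokinase and Ddit3 (CHOP) a transcription factor of that response. The Ddit3 call was lost without Control 1 or 2 or IFNG 1 or 2 (adjusted p 0.0583 to 0.0719). Atf4 was at 295, 277 and 364 CPM and 323, 331 and 279 CPM and was not called.

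**Figure D4:**
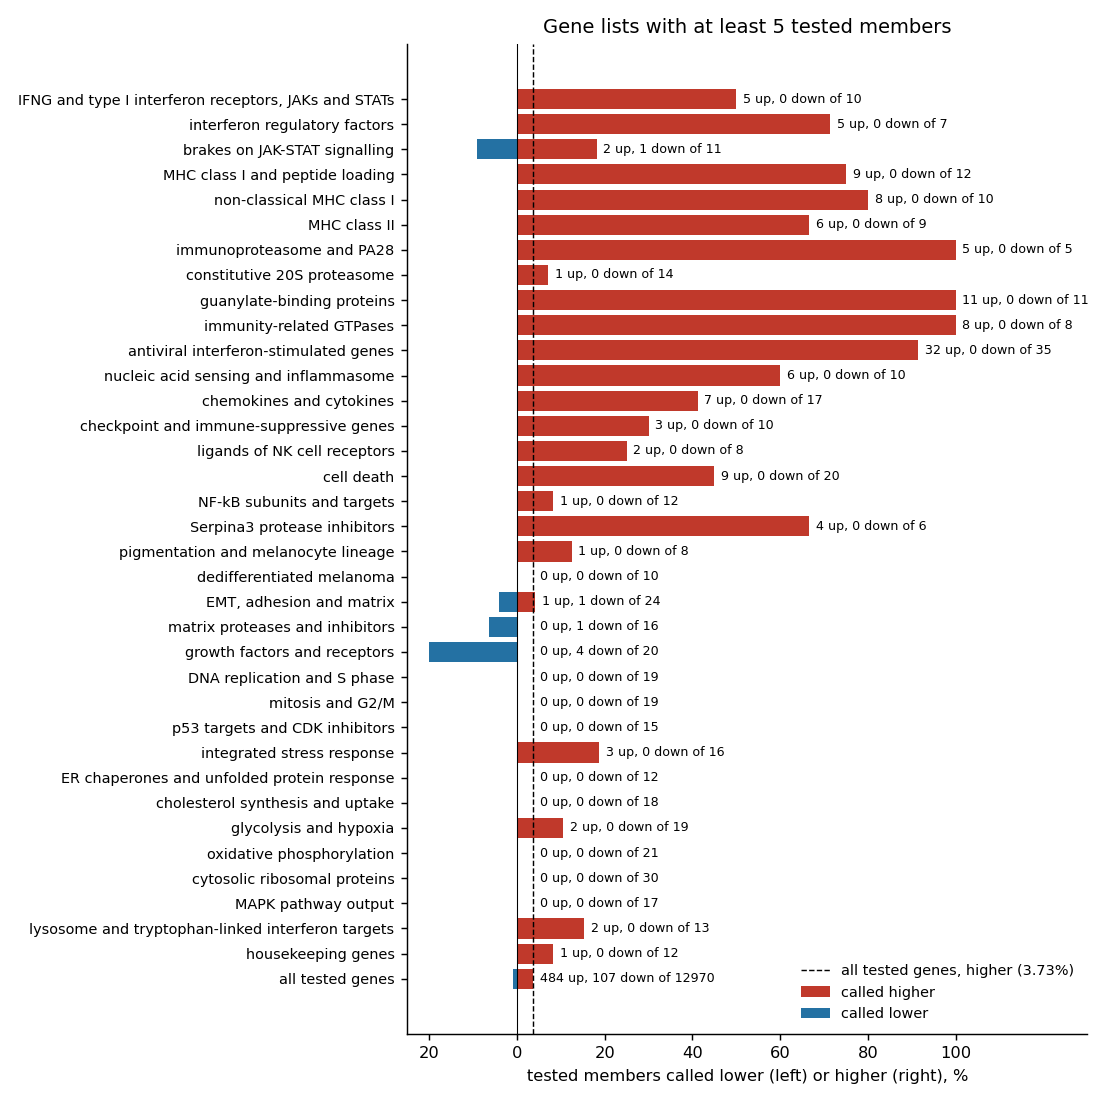
Percent of the tested members of each gene list that were called higher (red, right) or lower (blue, left), with counts beside each bar and the 3.73% of all tested genes called higher as a dashed line. Lists of GBPs, IRGs and the immunoproteasome stand at 100%, and lists of cell cycle, ribosomal and respiratory genes at 0.

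Genes that fell were fewer and changed less, and 32 of the 107 were called in each of the 6 fits that left out 1 library, against 320 of the 484 rises. Fmod (fibromodulin), a collagen-binding matrix protein, fell from 17.3, 20.7 and 18.3 CPM to 4.5, 4.53 and 7.28 CPM (log2 -1.71 ± 0.21 (SE), adjusted p = 5.66e-04). Add2, a subunit of the membrane skeleton protein adducin, fell from 39.8, 43 and 31 CPM to 11.7, 15.2 and 7.7 CPM (log2 -1.64 ± 0.22 (SE), adjusted p = 0.0016). Mmp3 (stromelysin), a matrix protease, fell from 17.4, 14.3 and 12.9 CPM to 7.18, 3.48 and 5.62 CPM (log2 -1.38 ± 0.24 (SE), adjusted p = 0.00759). In all 3 genes the groups were clearly apart.

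Growth factor genes held 4 of the falls among 20 tested members, against 0.825% of all tested genes. Nrg1 (neuregulin), a ligand of ERBB receptors, fell from 22, 26.3 and 16.9 CPM to 9.22, 6.02 and 6.77 CPM (log2 -1.49 ± 0.21 (SE), adjusted p = 0.00152). Areg (amphiregulin), a ligand of the EGF receptor, fell from 3.89, 3.29 and 2.57 CPM to 1.25, 0.727 and 1.23 CPM (log2 -1.53 ± 0.31 (SE), adjusted p = 0.0172), a call lost without Control 1 or IFNG 2 (adjusted p 0.0678 and 0.0772). Tgfa, another ligand of that receptor, fell from 11.2, 14.4 and 8.95 CPM to 6.81, 6.42 and 5.57 CPM (log2 -0.80 ± 0.20 (SE), adjusted p = 0.0483), a call lost without Control 1 or 2 or any 1 of the treated libraries (adjusted p 0.0846 to 0.164), with limma-voom (0.066) and with a filter of 1 CPM (0.0517).

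Igfbp3, a binding protein for insulin-like growth factors, was the largest loss in CPM, from 635, 476 and 514 CPM to 270.0, 298 and 223 CPM (log2 -0.96 ± 0.15 (SE), adjusted p = 0.00276). The other EGF receptor ligands of the list, Hbegf and Ereg, were not called (log2 -0.17 and -0.21, adjusted p = 0.53 and 0.715). Neither was Erbb3, a receptor of neuregulin, which was at 665, 416 and 569 CPM and 702, 795 and 604 CPM. Without Control 1 or without IFNG 2 the list held 2 called falls.

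Zdhhc2, a palmitoyltransferase, fell from 97.4, 125 and 91.1 CPM to 43.8, 27.3 and 49 CPM (log2 -1.30 ± 0.21 (SE), adjusted p = 0.0048). Phldb2, a protein of the cell cortex, fell from 85.8, 70.1 and 81.3 CPM to 48, 32.5 and 26 CPM (log2 -1.08 ± 0.20 (SE), adjusted p = 0.00974). Ndrg1, named for its regulation by N-myc and known to be raised by hypoxia, fell from 120.5, 129.6 and 167 CPM to 79.96, 76.2 and 83.5 CPM (log2 -0.72 ± 0.13 (SE), adjusted p = 0.0104). Osbpl6, a lipid-binding protein, fell from 98.4, 106 and 89.8 CPM to 57.5, 45.7 and 47.3 CPM (log2 -0.89 ± 0.12 (SE), adjusted p = 0.00136). These 4 kept their calls in each fit without 1 library.

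Of the 15 largest falls by log2 value with a mean of at least 5 CPM over the 6 libraries, 12 were called in every such fit, and of the 10 largest losses in CPM 4 were. Among the latter, Rassf4 (log2 -0.62 ± 0.12 (SE), adjusted p = 0.0156) lost its call without Control 3, IFNG 2 or IFNG 3 (adjusted p 0.0548 to 0.0864). The gap junction gene Gja1 (log2 -0.55 ± 0.12 (SE), adjusted p = 0.0277) lost it without Control 1, IFNG 1 or IFNG 2 (adjusted p 0.0539 to 0.149).

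**Figure D5:**
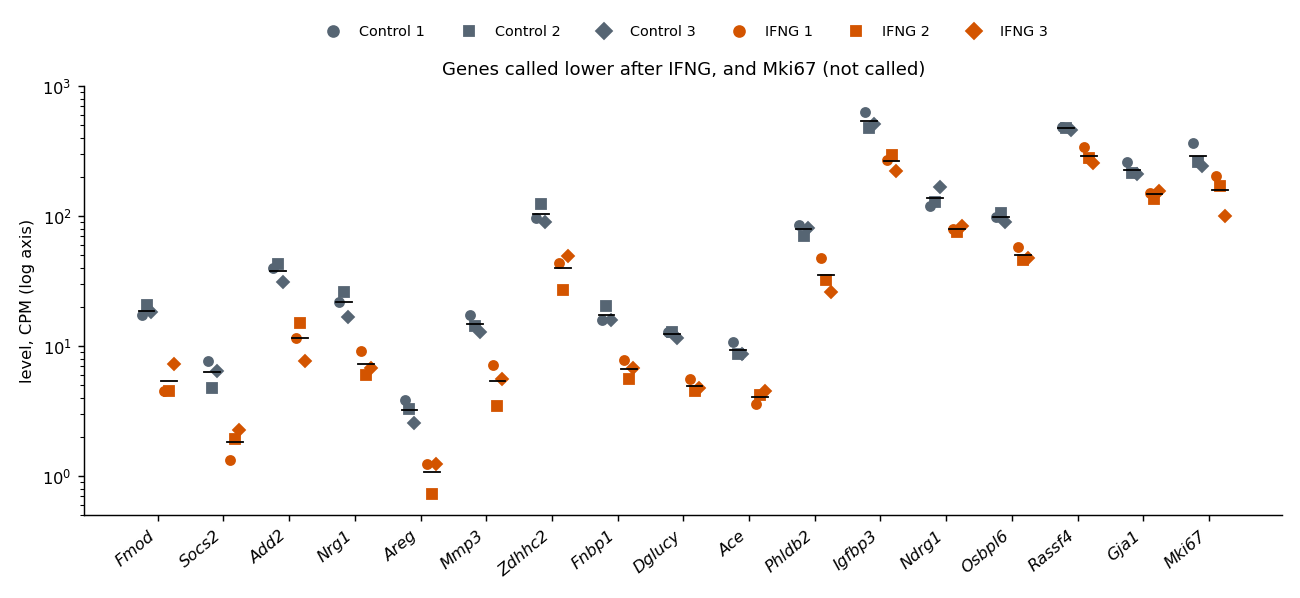
Levels in each library of 16 genes called lower after IFNG, and of Mki67, which was not called, in CPM on a log axis, with grey symbols for controls, orange symbols for IFNG and bars for the group means. Treated libraries lie below the controls in each gene shown, and in Mki67 the treated libraries spread from 101 to 205 CPM.

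None of 19 genes of DNA replication and S phase and none of 19 mitosis genes was called by edgeR, with 6 and 12 lower at an unadjusted p below 0.05 and 0 higher. Over all 12970 tested genes, 1141 were higher and 807 lower at that threshold. DESeq2 called 1 and 2 of them lower, and limma-voom 0 and 0. All 19 S-phase genes and 18 of the 19 mitosis genes had log2 values below 0, with medians of -0.24 and -0.32, against -0.01 over all tested genes. Scaled by library totals, the medians were -0.31 and -0.40. Mki67, the proliferation marker, was at 362, 261 and 244 CPM in the controls and 205, 169.7 and 101 CPM after IFNG (log2 -0.79 ± 0.24 (SE), adjusted p = 0.123). DESeq2 called Mki67 lower (adjusted p = 0.0088), as did edgeR without a filter on low counts (adjusted p = 1.58e-06). In the fit without a filter the log2 value of Mki67 was nearly the same (-0.78), and more genes were called in all (781 higher and 274 lower). The lower adjusted p therefore does not come from a larger fall. The mitosis gene with a log2 value above 0 was Top2a, at 645, 505 and 479 CPM and 623, 573 and 457 CPM (log2 0.10 ± 0.15 (SE), adjusted p = 0.847). The CDK inhibitor gene Cdkn1a was at 266, 352 and 283 CPM and 255, 263 and 308 CPM with overlapping groups (log2 -0.05 ± 0.14 (SE), adjusted p = 0.929).

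Of 8 tested pigment and melanocyte genes 1 was called higher, beside 3.73% of all tested genes. This gene, Mc1r, the melanocortin receptor, was at a low level (0.581, 0.522 and 0.669 CPM against 1.76, 1.54 and 1.45 CPM, log2 1.49 ± 0.31 (SE), adjusted p = 0.0219), a call lost in 5 of the 6 fits without 1 library, the exception being that without IFNG 3 (adjusted p 0.0684 to 0.0867). None of 10 genes of the dedifferentiated melanoma state was called by edgeR, DESeq2 or limma-voom. At an unadjusted p below 0.05, 1 was higher and 1 lower (1141 and 807 of all 12970 tested genes). Ngfr, a neural crest receptor of that state, was at 3034, 2961 and 2839.9 CPM and 2968, 3434 and 3026 CPM, and the receptor kinase gene Axl at 1265, 1299.9 and 1177 CPM and 1258, 1161 and 905 CPM. Of 24 genes of the epithelial-mesenchymal transition, adhesion and matrix, 1 rose and 1 fell, against 3.73% and 0.825% of all tested genes. The share of rises in the list (4.17%) was thus near that of all tested genes. Snai2 (Slug), a transcription factor, rose from 31.2, 30.6 and 27.7 CPM to 51.6, 49.5 and 47.1 CPM (log2 0.80 ± 0.11 (SE), adjusted p = 0.001) and Fmod fell. Vim, Cdh2, Fn1 and Sparc were not called (log2 0.04, -0.10, 0.34 and -0.12).

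Other lists had 0 calls by edgeR. Their counts at an unadjusted p below 0.05 stand beside 1141 higher and 807 lower of all 12970 tested genes. For 30 cytosolic ribosomal protein genes, 0 were called by edgeR, DESeq2 or limma-voom and 0 had an unadjusted p below 0.05, with a median log2 value of -0.02. For 21 genes of oxidative phosphorylation, 0 were called by any of these tools, and 1 was higher and 1 lower at an unadjusted p below 0.05. For 18 genes of cholesterol synthesis and uptake all log2 values were above 0, with a median of 0.27 (0.19 when scaled by library totals). Of these, 5 were higher at an unadjusted p below 0.05, 1 was called by DESeq2 and 0 by limma-voom.

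Of 17 output genes of the MAPK pathway, 2 were higher and 5 lower at an unadjusted p below 0.05 (1141 and 807 of all 12970 tested genes). DESeq2 called 1 of them higher and 1 lower, and limma-voom 0. Of 12 ER chaperone genes 1 was higher at an unadjusted p below 0.05 and 0 were called by the other tools. Of 15 p53 targets and CDK inhibitors 1 was higher and 3 lower at an unadjusted p below 0.05, DESeq2 called 1 lower and limma-voom 0.

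A part of the rises lay in runs along the chromosomes. With called rises joined where they were at most 200 kb apart, 28 runs of at least 3 genes held 123 of the 484 rises. Each run starts and ends with a called rise, so the share of tested genes that rose in its span follows in part from this definition. Runs among other tested genes were not counted, so there is no share to set beside these. The longest run by genes lay on chromosome 17 between 33909414 and 34316674, in the MHC, where 12 of 25 tested genes rose, with Tapbp, H2-K1, Psmb9, Tap1, Psmb8, Tap2 and H2-Ab1 among them. On chromosome 11 between 48861968 and 49135387 all 8 tested genes rose, among them Irgm1, Tgtp1, Tgtp2 and Ifi47. On chromosome 7 between 104244457 and 104507849 all 6 tested genes rose, all of them Trim genes, of a family with antiviral ubiquitin ligases.

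On chromosome 19 between 29251828 and 29388095 all 5 tested genes rose, with Jak2 at one end and Cd274 near the other. The log2 value was 0.53 for Jak2, 0.92 for Plgrkt (SE 0.11) and 5.94 for Cd274. By chromosome, the share of tested genes that rose ran from 2.30% on chromosome 4 to 6.22% on chromosome 17. Many neighbouring genes of these runs are copies of each other, and exons of 109 of the 484 rises overlap exons of another coding gene.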

How the data were processed

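RNA-seq libraries of YUMM1.1 cells, 3 given IFNG and 3 untreated, were compared as the labels group them; the 6 libraries of the other cell line were not used. The deposited table holds raw counts per Ensembl gene, per the file headers, on build GRCm38, per the submitters' processing notes; no source used here gives the aligner, the counter or its strand setting. Of 55416 gene IDs, 52083 took their symbol from the reference annotation, 307 from the authors' table and 3026 had none. The authors' deposited tables of comparisons hold log2 fold changes, p-values and a test score, which were not used for any value in the text.

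Genes were kept by edgeR's filter on low counts, scaled by TMM and tested with edgeR 4.0.16 in R 4.3.3 (quasi-likelihood test, Benjamini-Hochberg adjustment over 12970 genes); a call is an adjusted p below 0.05. Log2 values are IFNG over Control. The standard error (SE) beside them is the absolute log2 value divided by the square root of the F statistic of the test. It therefore restates the test result on the log2 scale and was not estimated separately, and for genes with few control reads it depends on the prior count too. CPM are counts per 1000000 counts of the library. Ratios of counts with 1 to 3 control reads carry exact 95% intervals, and lower bounds use a floor of 3 counts over the control group; both cover counting error only. The steps were tested on simulated counts. RefSeq promoter windows (GRCm38.p6) were matched to genes by symbol.

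Members and gene lists were chosen with earlier results of these data known. Genes were named by a rule: every member of the core interferon lists; from each other list the 4 calls of lowest adjusted p, the called member with the lowest log2 value and the most abundant member; the 15 largest rises and falls with a mean of at least 5 CPM and no overlap; the 10 largest gains and losses in CPM; and exceptions within a list. Named in addition, after their values were seen, were Art3, Atf4, Axl, Bak1, Bax, Bcl2, Casp4, Casp8, Ccl2, Ccl5, Cdh2, Cdkn1a, Cgas, Ddx58, Erbb3, Ereg, Fn1, Gbp7, H2-Q7, H60b, Hbegf, Ifi47, Ifih1, Ifit1, Ifit2, Ifitm2, Il15, Il15ra, Isg15, Kit, Ldha, Mcl1, Mitf, Mki67, Oas1a, Oas2, Oas3, Plgrkt, Psmb5, Ptprc, Raet1e, Rsad2, Slc2a1, Tmem173, Tyrp1, Ulbp1 and Vim. Alternatives were size factors of DESeq2, library totals, no filter or 1 CPM as filter, DESeq2 1.42.0, limma-voom 3.58.1, a replicate block, an adjusted p below 0.01 and leaving out each library. Same-group libraries differed by more than sampling noise, so none was counted as a copy of another. Results for some genes are not reported here.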

Additional observations from a re-analysis of the deposited data

How the results depend on the processing

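Rises numbered 464 to 622 with RLE size factors, a filter of 1 CPM, DESeq2, limma-voom or a replicate block, 425 with library totals, 781 without a filter on low counts (25449 genes tested) and 323 at an adjusted p below 0.01. Falls numbered 178 with library totals, 274 without a filter, 203 with DESeq2 and 34 at an adjusted p below 0.01, against 107. Leaving out 1 library gave 358 to 482 rises and 38 to 101 falls. Library totals shifted the median of all genes by -0.08 on the log2 scale. With the threshold for promoters set at a log2 value of at least 1, 29.9% of the 231 genes with a window had an ISRE match and 40.3% either match. Replicate numbers are shared by the groups, but same-numbered libraries did not deviate together (correlations of -0.05, -0.51 and -0.02), and not every library correlated best with its own number, so the numbers were not taken as pairs; with the replicate block 464 genes were higher and 96 lower, Mki67 was called lower (adjusted p = 0.00305) and the call of Mc1r was lost (0.0641). Without a filter on low counts Socs3, Cd47, Erbb3 and Il15 were called (adjusted p 0.00692, 0.0336, 0.0372 and 0.0256). Log2 values of some genes that were not called changed sign: Atf4 (-0.0029 to 0.19 without 1 library, -0.004 with library totals), Axl (-0.19 to 0.0247 without 1 library), Bcl2 (-0.0901 to 0.29 without 1 library, -0.0044 with library totals), Braf (-0.18 to 0.0058 without 1 library), Canx (-0.0737 to 0.15 without 1 library, -0.0605 with library totals), Cd276 (-0.20 to 0.36 without 1 library), Cdh2 (-0.17 to 0.0351 without 1 library), Cdkn1a (-0.14 to 0.0874 without 1 library), Cgas (-0.0789 to 0.14 without 1 library, -0.0144 with library totals), Ereg (-0.43 to 0.0121 without 1 library), Irf3 (-0.0674 to 0.0347 without 1 library), Mcl1 (-0.0685 to 0.0031 without 1 library), Psmb5 (-0.0275 to 0.16 without 1 library, -0.0015 with library totals), Pvr (-0.0788 to 0.12 without 1 library), Rfxank (-0.0289 to 0.11 without 1 library, -0.0436 with library totals), Rfxap (-0.16 to 0.0836 without 1 library), Vim (-0.0836 to 0.16 without 1 library, -0.0383 with library totals); the cause was not tested. Depth limits the genes with few control reads, whose size of rise is known only as a wide interval or a bound.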

Other observations

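Several groups of genes outside the lists also rose. They were chosen after their values were seen, so their grouping carries no test. The machinery that attaches ISG15 to proteins rose with Isg15: Uba7, its activating enzyme, went from 15.1, 10.9 and 14.7 CPM to 193, 216 and 219 CPM (log2 4.02 ± 0.15 (SE), adjusted p = 4.70e-08), and Ube2l6, its conjugating enzyme, from 4.11, 5.95 and 6.07 CPM to 123, 117 and 189.6 CPM (log2 4.82 ± 0.24 (SE), adjusted p = 6.13e-07). Ubd (FAT10), a ubiquitin-like protein that directs proteins to the proteasome, went from 0.0894, 0.47 and 0 CPM to 5.01, 5.54 and 15.1 CPM (log2 5.60 ± 0.75 (SE), adjusted p = 0.00151, 4.89 without IFNG 3 and 7.41 without Control 2). In each of these genes the groups did not overlap. Pomp, the assembly factor of the proteasome core, rose from 108, 145 and 128 CPM to 187, 181 and 231 CPM (log2 0.73 ± 0.14 (SE), adjusted p = 0.016), a call lost without Control 3 (adjusted p = 0.0692).

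Ly6a (Sca-1) and Ly6c1, surface proteins encoded side by side on chromosome 15, rose by log2 values of 4.0 and 3.75 (SE 0.34 and 0.26). Serpinb9, a relative of the human inhibitor of granzyme B, went from 7.83, 8.3 and 8.38 CPM to 37.4, 39.6 and 49.4 CPM (log2 2.45 ± 0.15 (SE), adjusted p = 1.63e-06). Nampt, the rate-limiting enzyme of NAD salvage, went from 64.1, 61.2 and 70.6 CPM to 256, 301 and 365 CPM (log2 2.31 ± 0.15 (SE), adjusted p = 3.00e-06). Grn (progranulin) and Gla (alpha-galactosidase) rose by log2 values of 0.71 and 1.20 (SE 0.11 and 0.11).

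Of 13 tested genes of the list of lysosomal and tryptophan-linked interferon targets, Wars and Lamp2 rose and 0 fell, beside 3.73% of all tested genes called higher. The median log2 value of the list was 0.30. Lamp2, a lysosomal membrane protein, was at 494, 365 and 367 CPM and 537, 608 and 708 CPM (log2 0.68 ± 0.16 (SE), adjusted p = 0.0361), and its adjusted p was 0.0947 to 0.153 when Control 2, Control 3, IFNG 2 or IFNG 3 was left out.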
